A study of Homo sapiens with 54 samples.

Results

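The response of MDA-MB-231 cells to 48 h of Compound Kushen Injection (CKI) was described across all measured genes, from 12 of the 54 RNA-seq libraries of the series. These were the 6 libraries of cells given CKI at 2 mg/ml and the 6 libraries of untreated cells sampled at 48 h, with 3 of each in batch 1 and 3 of each in batch 2. MDA-MB-231 is an established line from a human triple-negative breast cancer, and CKI is an aqueous extract of medicinal plants that is rich in alkaloids such as oxymatrine and oxysophocarpine. The other 42 libraries hold cells at 24 h or cells given mixtures of CKI components. The control cells are labelled as untreated, with no vehicle named, so the extract and whatever carrier it was supplied in cannot be told apart. All cells came from the same line and were grown in the same serum-containing medium, and the series describes the replicates as biological, without saying what a batch stands for. The p-values measure the spread between these replicates of 1 cell line.

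Plant extracts reach the transcriptome of cultured cells through several sensors that are well described. The aryl hydrocarbon receptor is a ligand-activated transcription factor that binds planar compounds and switches on xenobiotic metabolism, and NRF2 is a factor freed from KEAP1 by electrophiles that switches on antioxidant enzymes. The unfolded protein response, the sterol sensors SREBP and LXR, the cell cycle transcription programme and interferon signalling each read out a different state of the cell, and each has a group of target genes that usually move together. Such groups were followed here as 29 gene lists, beside the genes that changed most in both batches.

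Total counts per library lay between 19160502 and 26138924, and 14351 of the 27978 genes listed had enough counts for a test. The first principal component of log2 CPM (read counts scaled to a common library total, adjusted by TMM), with 61.3% of the variance, separated CKI from untreated libraries, and the second, with 30.7%, separated the batches. Within each of the 4 groups no pair of replicates agreed within sampling noise. Of 7 marker genes of MDA-MB-231 cells, among them VIM and CD44, none was at 0, and their summed level lay between 4879 and 5625 CPM in untreated and between 2821 and 3080 in CKI libraries. The corresponding sums were 47.8 to 68.4 and 31.2 to 35.6 for luminal breast markers, 33.3 to 78.4 and 40.2 to 51.6 for fibroblast markers, 5.20 to 22.2 and 5.99 to 10.5 for leukocyte markers, and 8.30 to 10.2 and 10.3 to 12.6 for endothelial markers. The defining markers ESR1 and PGR of luminal cells and PTPRC and CD3E of leukocytes had at most 7, 2, 9 and 2 counts in any library, and no marker was at 0 in all 12. Other members of these lists were present, with 156 to 814 counts of GATA3, 170 to 525 of EPCAM, 100 to 408 of ERBB3 and 103 to 456 of CD14. The part of these cell types in the results was not tested. In bulk RNA, fewer cells in a given state and less of a transcript per cell cannot be told apart.

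CKI changed the level of most genes that could be tested. With batch as a term, 10264 of the 14351 genes (71.5%) were differentially expressed (DE) at 48 h by the quasi-likelihood test of edgeR, at an adjusted p under 0.05 (Benjamini-Hochberg, with every tested gene counted). Of these 5122 (35.7%) were higher and 5142 (35.8%) lower with CKI. The shares of 35.7% and 35.8% are the background against which the count of each gene list below is read. The split rests on the scaling, since library sizes alone in place of TMM gave 6016 higher and 4298 lower genes. Most of the changes were small, with a median absolute log2 fold change of 0.46 over the DE genes. The median signed change over all genes was near 0 (0.00071), a value that also rests on the scaling. A change of at least 2-fold in each batch, DE in each batch alone and in the same direction, was reached by 1042 genes (7.26%), 600 of them higher (4.18%) and 442 lower (3.08%), or 721 and 370 with library sizes alone. In 910 of the 1042 genes the 6 CKI libraries and the 6 untreated libraries did not overlap. The same held for 4582 of all 14351 genes, with CKI higher in 15.4% and lower in 16.5%. The 1042 were picked for large changes in these same libraries, so their lack of overlap is no separate support. A change of at least 4-fold in both batches was reached by 101 genes in the upward and 46 in the downward direction.

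The batches gave similar responses although the untreated cells themselves differed, with 8883 genes DE between untreated cells of batch 2 and batch 1, 958 of them by over 2-fold. Batch 1 alone gave 8955 and batch 2 alone 9777 DE genes. They shared 7468, of which 7321 had the same direction and 147 (1.02% of genes tested) the opposite direction. Across genes the log2 fold changes of the batches had a Pearson correlation of 0.852, with separate control libraries in each batch, although genes are not independent replicates. The genes 2-fold higher in both batches made up 0.845% of normalised counts in untreated and 2.32% in CKI libraries of batch 1, and 0.919% and 2.63% in batch 2. Those 2-fold lower made up 3.49% and 1.38% in batch 1, and 2.99% and 1.10% in batch 2.

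**Figure D1:**
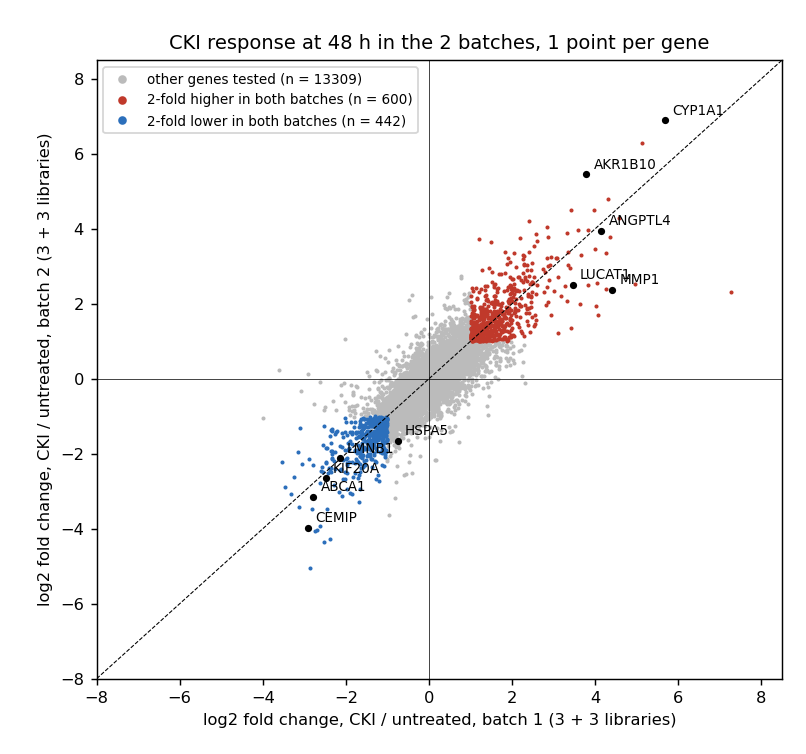
Log2 fold change of CKI over untreated cells at 48 h in batch 1 (x axis) and batch 2 (y axis), 1 point for each of the 14351 genes tested, from 3 CKI and 3 untreated libraries in each batch. Red and blue points are the 600 genes 2-fold higher and the 442 genes 2-fold lower in both batches, the dashed line marks equal change, and MMP1 (4.42 in batch 1 and 2.38 in batch 2) lies below it.

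Among genes that averaged 10 CPM or more, 155 were 2-fold higher and 214 were 2-fold lower in both batches. The 15 genes at the top of each direction, ranked by the smaller of their 2 within-batch changes, were read first. On the rising side CYP1A1, ANGPTL4 and ASB2, a subunit gene of a ubiquitin ligase, led, followed by the noncoding RNAs FER1L4 and LUCAT1. FER1L4 lay from 5.41 to 8.23 CPM (median 6.00) in untreated and from 45.9 to 70.2 CPM (median 55.4) in CKI libraries, a log2 fold change of 3.20 ± 0.11 (SE). LUCAT1, a stress-responsive noncoding RNA, lay from 2.70 to 9.24 CPM (median 4.72) and from 29.8 to 45.5 CPM (median 39.4), with log2 fold changes of 3.46 in batch 1 and 2.51 in batch 2. In both cases every CKI library lay above every untreated library.

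The other rising genes belonged to varied families. AKR1C1, an aldo-keto reductase of steroid and carbonyl metabolism, had a log2 fold change of 2.68, and CYP1B1, a cytochrome P450 of the same xenobiotic family as CYP1A1, one of 2.55. MMP1, the interstitial collagenase, rose by 3.30 on the log2 scale, from between 9.26 and 27.2 CPM to between 119 and 216 CPM, and its rise was larger in batch 1 (4.42) than in batch 2 (2.38). Genes of cell surfaces and junctions were the pannexin channel gene PANX2 (2.48), the thrombin receptor gene F2RL3 (2.68), the tight junction gene CGN (2.43) and the adaptor gene LAT2 (2.57). The interferon-induced transmembrane family member IFITM10 (2.49), the keratin gene KRT15 (2.19) and CYSRT1 (2.69) completed the 15. The largest adjusted p-value among the 15 was 3.53e-09 (quasi-likelihood test of edgeR, Benjamini-Hochberg adjusted), and none of the 15 had overlapping groups. Both follow in part from the choice of these genes by their change in the same libraries. Reads of AKR1C1 can be shared with AKR1C2 and AKR1C3, which are near-identical, and those of CYP1B1 with its antisense gene, since the strand setting of the counting is not given.

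On the falling side CEMIP, which takes part in hyaluronan breakdown, and the cholesterol exporter gene ABCA1 led. Next came FST, the activin antagonist follistatin, which lay from 54.3 to 97.2 CPM (median 75.0) in untreated and from 8.96 to 16.8 CPM (median 13.1) in CKI libraries, a log2 fold change of -2.52 ± 0.053 (SE). KIF20A, a kinesin needed for cytokinesis, lay from 81.9 to 104 CPM (median 98.4) and from 13.8 to 18.8 CPM (median 16.4), a log2 fold change of -2.56 ± 0.067. In both genes all 6 CKI libraries were below all 6 untreated ones, and the interaction with batch passed the test in neither. LMNB1, which encodes the nuclear lamina protein lamin B1, fell by 2.14 on the log2 scale, from between 111 and 146 CPM to between 27.5 and 36.1 CPM. RPL22L1, a paralog of a ribosomal protein gene, changed by -1.97.

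The remaining falling genes included secreted and matrix proteins, calcium-binding and interferon-induced genes. The insulin-like growth factor binding protein gene IGFBP1 changed by -2.96 and TNC, which encodes the matrix protein tenascin C, by -2.13 on the log2 scale. Among interferon-induced genes OASL changed by -2.42 and IFIT2 by -2.34, and S100A2, of the S100 calcium-binding family, by -2.23. GGT5, a gamma-glutamyltransferase family member, had a log2 fold change of -2.07, RCSD1 of -2.43, C6orf132 of -2.55 and FILIP1L of -2.06. The largest adjusted p-value among the 15 was 3.39e-11 by the same edgeR test, and none had overlapping groups, which the choice of genes again favours.

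Ranked instead by the change in their share of all reads, other genes came first. The largest gain was in the ferritin light chain gene FTL, which lay from 1669 to 3598 CPM (median 2518) in untreated and from 4454 to 9577 CPM (median 6966) in CKI libraries (log2 fold change 1.42), followed by the transcript listed as RNR2 (0.47), the ferritin heavy chain gene FTH1 (1.00), the chromatin architectural gene HMGA1 (0.92), the autophagy receptor gene SQSTM1 (0.92) and the glycolytic gene ALDOA (0.64). The largest losses were in the translation elongation factor gene EEF1A1 (-0.70), the cytoplasmic actin genes ACTB (-1.08) and ACTG1 (-0.996), the actin-sequestering thymosin gene TMSB4X (-0.95), S100A6 (-0.67) and the ER chaperone gene HSPA5 (-1.20). The groups overlapped over the 12 libraries in TMSB4X, though not within either batch, and in none of the other 11 genes. A gene's share of reads depends on its length as well as its level, and several of these genes, FTL, FTH1, EEF1A1 and ACTB among them, have many processed pseudogenes that can take or give reads.

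**Figure D2:**
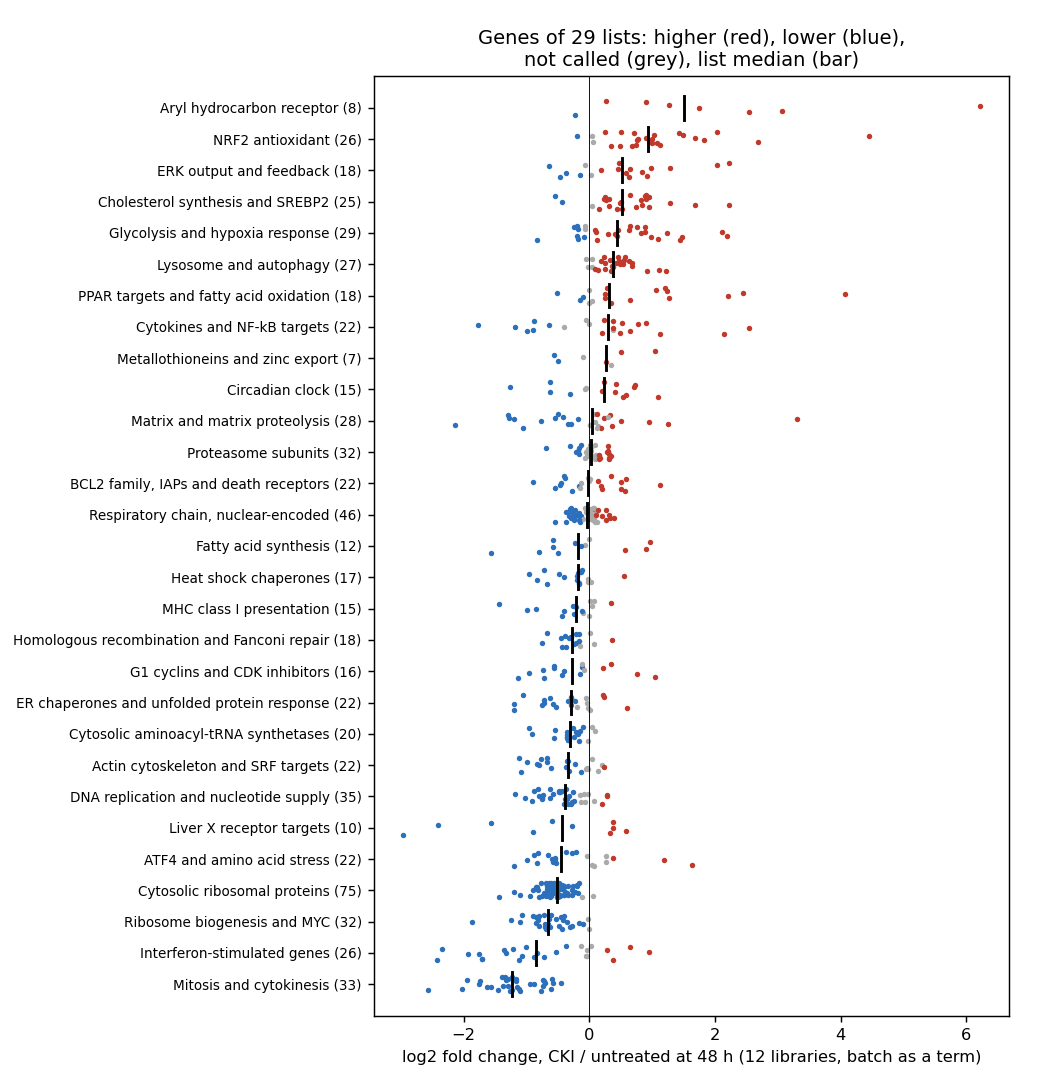
Log2 fold change of CKI over untreated cells at 48 h (x axis) for each tested member of 29 gene lists (y axis, number tested in parentheses), from the fit of 12 libraries with batch as a term. Red points were higher, blue points lower and grey points not DE, and black bars are list medians, which run from 1.51 for the aryl hydrocarbon receptor list to -1.23 for mitosis and cytokinesis.

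Xenobiotic metabolism under the aryl hydrocarbon receptor had the largest list median. Of its 10 genes 8 could be tested, 7 were higher and 1 lower, with a median log2 fold change of 1.51 (1.36 in batch 1 and 1.63 in batch 2), and 5 were 2-fold higher in both batches against 4.18% of all genes. The named targets were the monooxygenase genes CYP1A1 and CYP1B1, the ADP-ribosyltransferase gene TIPARP and the quinone reductase gene NQO1. CYP1A1 lay from 0.357 to 1.37 CPM (median 0.940) in untreated and from 62.9 to 75.0 CPM (median 65.7) in CKI libraries. TIPARP, a feedback repressor of the receptor, lay from 26.2 to 45.6 CPM (median 37.3) and from 90.0 to 149 CPM (median 123), a log2 fold change of 1.75 ± 0.055 (SE), with 1.71 in batch 1 and 1.78 in batch 2. NQO1 rose by 0.91, less in batch 1 (0.53) than in batch 2 (1.28). Of the regulators, AHRR, the receptor's repressor, rose by 1.27, ARNT, its partner, by 0.27, and the receptor gene AHR itself fell by 0.23 (largest adjusted p-value among the 7 named genes 0.000113, quasi-likelihood test of edgeR, Benjamini-Hochberg adjusted).

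The letters GCGTG form the core that the aryl hydrocarbon receptor recognises and were searched on both strands in promoter sequences of RefSeq (build GRCh38.p14, from 250 bases before to 50 bases after each gene's start), which matched 10847 of the 14351 genes tested. They occurred in 4 of the 5 higher members of the list with a promoter sequence, in 50.4% of all promoters, in 42.6% of those of the genes 2-fold higher in both batches and in 84.2% of those of the cholesterol list. The 150 bases before the start site of the 3 named genes that hold the core there follow, written 5′ to 3′ along the gene with the core, or its reverse complement, in capitals. The core began 57 bases before the start in CYP1A1 (chr15:74725529-74725678, minus strand), 142 in TIPARP (chr3:156674440-156674589, plus strand) and 30 in AHRR (chr5:321564-321713, plus strand).
CYP1A1: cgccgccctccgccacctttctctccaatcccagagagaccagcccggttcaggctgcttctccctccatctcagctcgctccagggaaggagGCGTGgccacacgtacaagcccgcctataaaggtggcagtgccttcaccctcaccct
TIPARP: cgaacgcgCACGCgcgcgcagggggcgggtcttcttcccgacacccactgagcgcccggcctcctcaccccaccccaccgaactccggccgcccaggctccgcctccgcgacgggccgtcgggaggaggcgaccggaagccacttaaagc
AHRR: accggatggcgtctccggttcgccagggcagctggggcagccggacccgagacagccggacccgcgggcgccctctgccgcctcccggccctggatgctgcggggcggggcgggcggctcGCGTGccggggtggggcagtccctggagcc

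Antioxidant genes under NRF2 rose together. Of the 26 tested genes 23 (88.5%) were higher and 1 lower, against 35.7% and 35.8% of all genes, with a median log2 fold change of 0.94. In 17 of the 26 the 12 libraries separated by treatment, with CKI higher, against 15.4% of all genes. AKR1B10, an aldo-keto reductase, lay from 0.208 to 1.20 CPM (median 0.592) in untreated and from 13.2 to 15.6 CPM (median 14.3) in CKI libraries, a log2 fold change of 4.46 ± 0.19 (SE). SRXN1, the sulfiredoxin that restores oxidised peroxiredoxins, lay from 99.8 to 136 CPM (median 102) and from 288 to 491 CPM (median 399.6), a log2 fold change of 1.82 ± 0.081. In both genes every CKI library was above every untreated library. AKR1C2 rose by 2.03, with much more of the rise in batch 2 (3.66) than in batch 1 (1.51), where untreated cells already had between 7.08 and 9.93 CPM. Of the regulators, NFE2L2, the gene of NRF2, rose by 0.25 and KEAP1 fell by 0.19 (largest adjusted p-value among these genes and AKR1C1 0.00762 by the quasi-likelihood test of edgeR, Benjamini-Hochberg adjusted). The letters TGACNNNGC, the core of the antioxidant response element, were found on either strand in 5 of the 15 higher members with a promoter sequence (33.3%) and in 15.1% of all promoters, and other lists held them as often or more, with 44.4% of lysosome and 38.9% of ATF4 promoters. The changes of NFE2L2 and KEAP1 lost their call when the batch term was dropped, and that of KEAP1 also with library sizes alone in place of TMM scaling.

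Genes of protein folding in the ER were mostly lower at 48 h. Of the 22 genes of ER chaperones and the unfolded protein response 14 (63.6%) were lower and 3 higher, with a median log2 fold change of -0.29. HSPA5, which encodes BiP, the main ER chaperone, had 1361, 1291 and 1302 CPM in the untreated and 812, 756 and 767 CPM in the CKI libraries of batch 1. In batch 2 it had 2722, 2091 and 3916 CPM in untreated and 933, 937 and 918 CPM in CKI libraries. The CKI libraries of the batches lay close together, while the untreated libraries of batch 2 were higher and more spread out than those of batch 1. The fall was larger in batch 2 (-1.65) than in batch 1 (-0.75), and without untreated replicate 3 of batch 2, the highest library, the log2 fold change over both batches was -1.04 in place of -1.20.

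Among the 22 genes of the list 18 had a response that differed between the batches, against 14.3% of all genes, with list medians of -0.08 in batch 1 and -0.56 in batch 2. HSP90B1 (GRP94) had a log2 fold change of -1.20, the chaperone-associated gene CRELD2 of -1.06, the secreted stress factor gene MANF of -0.75 and XBP1, whose spliced transcript encodes a regulator of the response, of -0.58. ERN1, the gene of the sensor IRE1, rose by 0.60 and ATF6 had 0.01 (adjusted p = 0.892, quasi-likelihood test of edgeR, Benjamini-Hochberg adjusted). Without untreated replicate 3 of batch 2 the list had 14 lower and 3 higher members as before and a median of -0.24.

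The ER stress element, CCAAT followed after 9 bases by CCACG, is the site through which the unfolded protein response acts on chaperone genes, and it was searched on both strands in the same promoters. It was found in 14 of the 10847 promoters (0.129%), and 6 of the 13 lower members of the list with a promoter sequence were among them. These 6 were CALR, CANX, CRELD2, HSP90B1, HSPA5 and XBP1. For the 4 named genes among them the 150 bases before the start are shown with both parts of the element, or their reverse complement, in capitals. The element began 66 bases before the start in HSPA5 (chr9:125241344-125241493, minus strand), 89 in HSP90B1 (chr12:103930260-103930409, plus strand), 80 in CRELD2 (chr22:49918484-49918633, plus strand) and 52 in XBP1 (chr22:28800570-28800719, minus strand).
HSPA5: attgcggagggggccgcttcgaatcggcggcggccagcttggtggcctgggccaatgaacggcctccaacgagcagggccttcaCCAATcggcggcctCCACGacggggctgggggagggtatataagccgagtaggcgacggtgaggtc
HSP90B1: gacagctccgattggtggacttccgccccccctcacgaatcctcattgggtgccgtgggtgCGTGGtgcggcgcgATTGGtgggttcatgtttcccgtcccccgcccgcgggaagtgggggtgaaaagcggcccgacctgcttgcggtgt
CRELD2: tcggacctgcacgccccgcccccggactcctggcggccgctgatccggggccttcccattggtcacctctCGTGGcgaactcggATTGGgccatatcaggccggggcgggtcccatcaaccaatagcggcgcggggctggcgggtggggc
XBP1: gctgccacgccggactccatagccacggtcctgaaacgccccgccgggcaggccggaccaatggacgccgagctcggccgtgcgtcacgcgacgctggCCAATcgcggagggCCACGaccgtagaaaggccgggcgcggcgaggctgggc

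Genes of amino acid supply and charging were also mostly lower. Of 22 genes of the ATF4 stress branch 14 were lower and 3 higher (median -0.45, but -0.25 in batch 1 alone and -0.39 in batch 2 alone). In 8 of the 22 the response differed between the batches, against 14.3% of all genes. Lower members were the serine synthesis gene PHGDH at -1.20, the mitochondrial one-carbon gene SHMT2 at -0.83, the glutathione-degrading CHAC1 at -0.81, ATF4 itself at -0.38 and the stress factor gene DDIT3 at -0.60. DDIT3 was the only one of these 5 whose groups overlapped over the 12 libraries, with 22.2 to 79.0 CPM in untreated and 18.3 to 31.5 CPM in CKI libraries. VLDLR, a lipoprotein receptor gene of the list, went the other way (1.18), and 5 members in place of 3 were higher without untreated replicate 3 of batch 2. The largest rise in the list was 1.63. By the 2-fold rule in both batches 2 members were higher and 1 lower, against 4.18% and 3.08% of all genes. Among 20 cytosolic aminoacyl-tRNA synthetase genes, which charge tRNAs with their amino acids, 17 were lower and none was higher (median -0.30), for example VARS (-0.96), WARS (-0.91), FARSB (-0.56) and KARS (-0.55), and 1 was higher without untreated replicate 3, CKI replicate 1 or CKI replicate 3 of batch 2. The letters TGATGCA, the element bound by ATF4 and its partners, were found on either strand in 6 of the 16 synthetase genes with a promoter sequence (37.5%) and in 1.35% of all promoters. Among 17 heat shock chaperone genes 13 were lower and 1 higher (median -0.18), with HSPB1 at -0.96, HSPD1 at -0.84, HSPE1 at -0.72 and HSPA8 at -0.68, while their regulator HSF1 had 0.02 (adjusted p = 0.742, quasi-likelihood test of edgeR, Benjamini-Hochberg adjusted). Of 7 metallothionein and zinc genes 3 rose and 2 fell, MT1X (1.04) and the zinc exporter gene SLC30A1 (0.50) upward, with their regulator MTF1 (0.27), and MT1E downward (-0.56), where near-identical family members can share reads.

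Mitotic genes were lower throughout. All 33 genes tested of the mitosis and cytokinesis list were lower with CKI, with a median log2 fold change of -1.23 (-1.08 in batch 1 and -1.38 in batch 2) and a range from -2.56 to -0.45, and 19 of them were 2-fold lower in both batches against 3.08% of all genes. In 32 of the 33 the CKI and untreated libraries did not overlap, with CKI lower, against 16.5% of all genes. PLK1, the polo-like kinase of mitotic entry, lay from 104 to 167 CPM (median 131) in untreated and from 22.9 to 45.9 CPM (median 33.7) in CKI libraries, a log2 fold change of -2.02 ± 0.059 (SE). CDC20, the activator of the anaphase-promoting complex, lay from 206 to 251 CPM (median 220.0) and from 44.8 to 72.6 CPM (median 59.5), a log2 fold change of -1.94 ± 0.059. AURKA, the centrosomal Aurora kinase, lay from 180.0 to 209 CPM (median 192) and from 50.0 to 66.6 CPM (median 57.4), a log2 fold change of -1.74 ± 0.042. The transcription factors of this programme fell less, FOXM1 by 0.61 and MYBL2 by 0.72 on the log2 scale, MYBL2 being the member with overlapping groups.

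Many mitotic genes carry the CHR, the letters TTTGAA, close to their start site, where the repressing and activating complexes of the cell cycle bind. The CHR was found on either strand in 18 of the 27 list members with a promoter sequence (66.7%) and in 9.49% of all 10847 promoters. It was also found in 17.6% of the promoters of the 442 genes 2-fold lower in both batches, of which 313 had a sequence, and in 9.27% of those of the 600 genes 2-fold higher. The CCAAT box was found in 19 of the 27 (70.4%) and in 36.3% of all. The 150 bases before the start of the 2 named genes with a CHR there are shown with the CHR in capitals, beginning 29 bases before the start in PLK1 (chr16:23678739-23678888, plus strand) and 65 in CDC20 (chr1:43358831-43358980, plus strand).
PLK1: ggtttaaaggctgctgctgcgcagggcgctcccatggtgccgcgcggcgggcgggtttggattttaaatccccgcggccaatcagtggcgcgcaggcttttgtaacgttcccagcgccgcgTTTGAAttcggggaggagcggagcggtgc
CDC20: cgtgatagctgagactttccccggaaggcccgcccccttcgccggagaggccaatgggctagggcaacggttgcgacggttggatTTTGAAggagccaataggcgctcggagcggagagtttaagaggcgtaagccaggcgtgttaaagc

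Other parts of the cell cycle had medians nearer to 0. Of 35 genes of DNA replication and nucleotide supply 26 were lower and 3 higher (median -0.39). They included the thymidylate synthase gene TYMS (-1.19), the ligase gene LIG1 (-1.03) and the replicative helicase genes MCM6 (-0.91) and MCM7 (-0.89), whereas E2F1, a transcription factor gene of the programme, rose by 0.28. The letters TTTGGCG, a form of the E2F site, were found on either strand in 11 of the 31 replication genes with a promoter sequence (35.5%) and in 2.91% of all promoters. A second form searched, TTTCGCG, was found in 6 of the 31 (19.4%) and in 2.3% of all promoters. Of 18 homologous recombination and Fanconi genes 14 were lower and 1 higher (median -0.27), among them RAD51AP1 (-0.75), BRCA2 (-0.67), BARD1 (-0.44) and FANCG (-0.39). Among 16 genes of G1 control 10 were lower and 4 higher. The CDK inhibitor gene CDKN1A lay from 152 to 264 CPM (median 185) in untreated and from 290.4 to 526 CPM (median 414) in CKI libraries, a log2 fold change of 1.04 ± 0.055 (SE). The cyclin genes CCND1 (-0.72) and CCNE2 (-0.73), the inhibitor gene CDKN2C (-1.14) and, by a small amount, RB1 (-0.15) were lower, the last without a call when untreated replicate 1 of batch 1 was left out (-0.09).

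Genes of cholesterol synthesis were mostly higher. Of 25 genes of cholesterol synthesis and SREBP2 22 (88.0%) were higher and 2 lower, with a median log2 fold change of 0.52 that was larger in batch 1 (0.72) than in batch 2 (0.39). TM7SF2, a sterol reductase gene, lay from 15.7 to 22.1 CPM (median 19.0) in untreated and from 87.5 to 90.5 CPM (median 88.3) in CKI libraries, a log2 fold change of 2.22 ± 0.062 (SE). MSMO1, a sterol demethylation gene, lay from 131 to 249 CPM (median 160.1) and from 478 to 619.8 CPM (median 549), a log2 fold change of 1.69 ± 0.071. The squalene epoxidase gene SQLE and the desaturase gene SC5D rose by 1.28 and 0.96, and the regulators SREBF2 and SCAP by 0.15 and 0.25. A lower member was PMVK (-0.44), a kinase gene of the early pathway, named after its values were seen.

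Genes of fatty acid synthesis and sterol export went both ways, with the largest changes downward. SREBF1, which encodes the SREBP1 factors of fatty acid synthesis and is a target of the liver X receptors, lay from 337 to 788 CPM (median 484) in untreated and from 119 to 245 CPM (median 171) in CKI libraries, a log2 fold change of -1.56 ± 0.059 (SE). The fatty acid synthase gene FASN was lower (-0.80), while the acetyl-CoA synthetase gene ACSS2 (0.90) and the malic enzyme gene ME1 (0.97) were higher, in a list with 7 lower and 3 higher genes of 12. The liver X receptor list had 6 lower and 4 higher of 10 genes. In it the cholesterol exporter gene ABCA1 lay from 69.4 to 78.3 CPM (median 77.5) in untreated and from 8.09 to 12.2 CPM (median 9.27) in CKI libraries, and MYLIP, a ligase gene that removes the LDL receptor, changed by -0.89, whereas the receptor genes NR1H2 (0.37) and NR1H3 (0.38) were higher.

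A list of PPAR genes, their targets and genes of fatty acid oxidation was mostly higher, with 12 of 18 genes higher, 3 lower and a median of 0.31. ANGPTL4, a lipoprotein lipase inhibitor, lay from 1.51 to 3.31 CPM (median 2.54) in untreated and from 32.3 to 55.4 CPM (median 42.9) in CKI libraries, the largest change of the list. ACADVL, which starts the oxidation of long-chain fatty acids, lay from 226 to 294 CPM (median 257) and from 543 to 699 CPM (median 630.0), and its log2 fold changes were 1.28 in batch 1 and 1.27 in batch 2. The pyruvate dehydrogenase kinase gene PDK4 (2.45) and the electron transfer gene ETFDH (1.24) also rose. Among the receptor genes PPARA rose by 1.20 and PPARD by 0.25, and PPARG fell by 0.14, a call that was lost without CKI replicate 2 (-0.09) or 3 (-0.12) of batch 2.

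**Figure D3:**
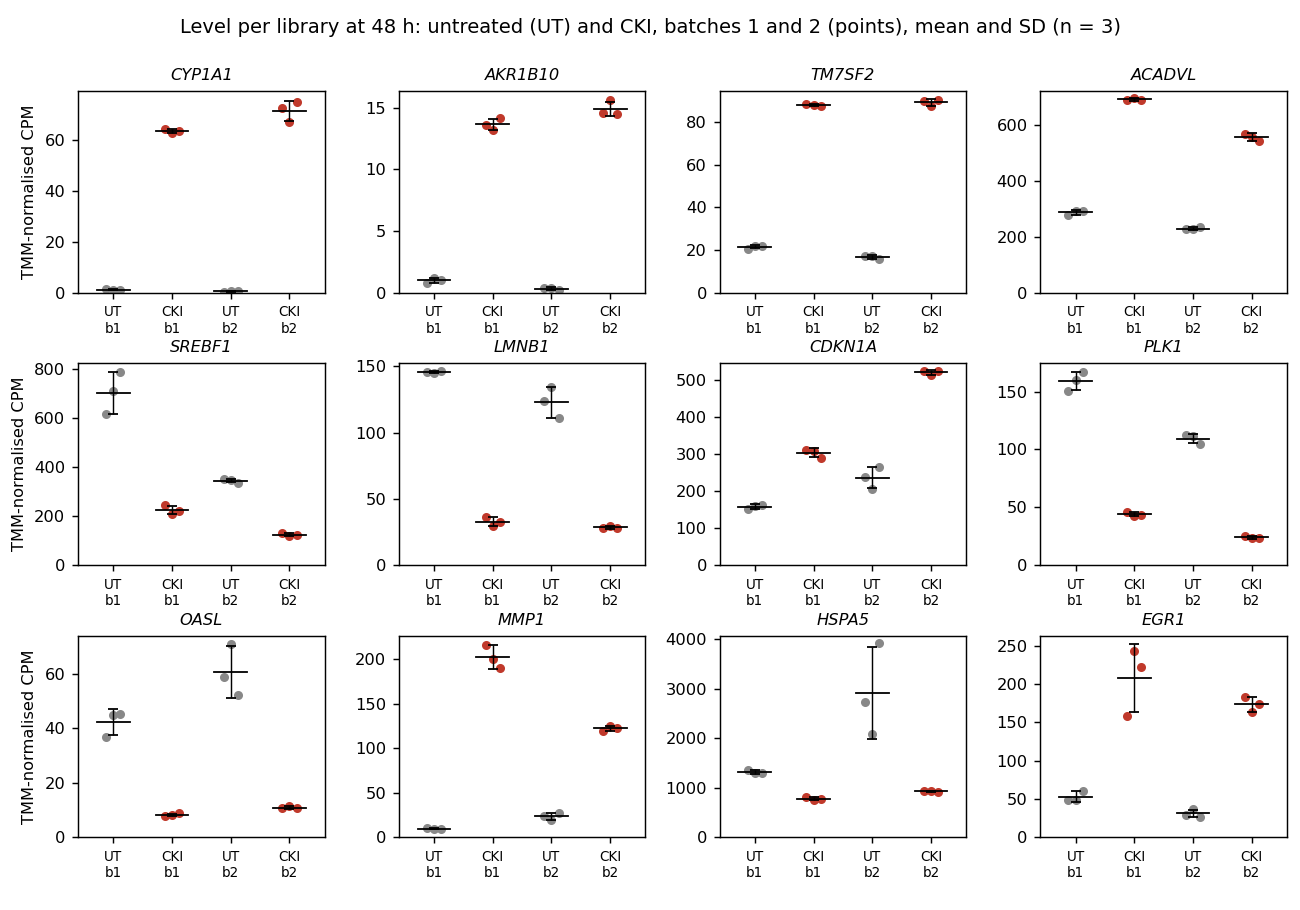
TMM-normalised CPM (y axis, linear from 0) of 12 genes in each of the 12 libraries at 48 h, grouped as untreated (UT, grey) and CKI (red) in batch 1 (b1) and batch 2 (b2), with the mean and SD of 3 libraries. The CKI libraries lie apart from the untreated ones in both batches for each gene shown, and the untreated libraries of batch 2 spread most for HSPA5.

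Glycolysis and hypoxia-response genes were mostly higher, with 20 of 29 (69.0%) higher, 7 lower and a median of 0.44. CA9, the carbonic anhydrase often used as a hypoxia marker, lay from 4.40 to 7.26 CPM (median 7.03) in untreated and from 23.9 to 29.1 CPM (median 28.5) in CKI libraries (log2 fold change 2.11). The aldolase gene ALDOC (2.19), the collagen prolyl hydroxylase gene P4HA1 (1.48) and the peptide hormone gene ADM (1.45) rose in both batches, while the hypoxia-inducible factor genes HIF1A (-0.83) and EPAS1 (-0.17) fell. Nuclear-encoded respiratory chain genes changed little, with 9 of 46 higher, 18 lower and a range from -0.55 to 0.39, and with library sizes alone 18 were higher. NDUFA9 (-0.55), UQCRFS1 (-0.37), ATP5F1B (-0.37) and NDUFA10 (-0.30) were among the lower ones.

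The genes of the ribosome and of its assembly were lower with few exceptions. Of 75 cytosolic ribosomal protein genes 73 were lower and none was higher, with a median log2 fold change of -0.51 (-0.49 in batch 1 and -0.56 in batch 2). The groups did not overlap in 62 of the 75, with CKI lower, against 16.5% of all genes. RPL10 lay from 930.0 to 1270.0 CPM (median 1118) in untreated and from 377 to 442 CPM (median 419.6) in CKI libraries, a log2 fold change of -1.43 ± 0.049 (SE). RPL3 (-1.20), RPL13A (-1.10) and RPSA (-0.94) followed. The 2 without a call, RPL17 and RPS10, had between 45 and 376 counts per library and overlap readthrough genes of the annotation, and ribosomal protein genes as a class have processed pseudogenes that can share their reads. Of 32 genes of ribosome biogenesis 30 were lower and none was higher (median -0.65), with UTP20 (-1.86) and RRS1 (-1.24) of ribosomal RNA processing, the nucleolar chaperone gene NPM1 (-1.10) and NOP16 (-1.08) as the named members. Of their regulators UBTF, which serves ribosomal RNA transcription, changed by -0.40, and MYC changed by -0.35, with -0.01 in batch 1 and -0.71 in batch 2.

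Lysosomal genes were higher, and proteasome genes changed little. Of 32 proteasome genes 10 were higher and 7 lower, with a median of 0.03, and the ATPase genes of 1 ring went both ways, PSMC6 at -0.69 and PSMC4 and PSMC5 at 0.28 and 0.31, with the lid gene PSMD11 at 0.32. With library sizes alone in place of TMM scaling the proteasome counts were 17 higher and 4 lower. Of 27 lysosome and autophagy genes 23 (85.2%) were higher and none was lower (median 0.38). GLA, the lysosomal alpha-galactosidase gene, lay from 27.5 to 33.0 CPM (median 29.9) in untreated and from 59.8 to 80.1 CPM (median 70.5) in CKI libraries (log2 fold change 1.22), and NEU1, the sialidase gene, lay from 193 to 273 CPM (median 216) and from 445 to 509 CPM (median 493) (1.11), without overlap in either case. SQSTM1 (0.92) and the lysosomal regulator genes TFEB (0.38) and TFE3 (0.18) rose too, while NFE2L1, which controls proteasome genes, had 0.09 (adjusted p = 0.0833, quasi-likelihood test of edgeR, Benjamini-Hochberg adjusted), a change that passed the test under 5 alternatives, among them library sizes alone (0.16).

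Actin genes were mostly lower and matrix genes went both ways. Of 22 genes of the actin cytoskeleton and its regulator SRF 15 were lower and 1 higher (median -0.34). ACTB lay from 4901 to 6478 CPM (median 5752) in untreated and from 2333 to 3169 CPM (median 2718) in CKI libraries. ACTG1 lay from 2638 to 4374 CPM (median 3460.5) and from 1278 to 2281 CPM (median 1810.5), the tropomyosin gene TPM3 changed by -0.80 and the calponin gene CNN3 by -0.77. The regulator SRF had -0.03 (adjusted p = 0.488, quasi-likelihood test of edgeR, Benjamini-Hochberg adjusted) and its coactivator gene MKL1 rose by 0.24, the single higher member in this fit. Of 28 matrix and matrix proteolysis genes 9 were higher and 12 lower, against 35.7% and 35.8% of all genes. In 13 of them the response differed between the batches, against 14.3% of all genes. Here MMP1 rose with the protease inhibitor gene TIMP1, which lay from 249 to 309 CPM (median 286) in untreated and from 594 to 737 CPM (median 700.0) in CKI libraries (log2 fold change 1.26), whereas TIMP3, another inhibitor gene of the family, lay from 574 to 919 CPM (median 829.8) and from 293 to 388 CPM (median 341) (-1.20).

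Interferon-stimulated genes were mostly lower, while some cytokine genes were higher. Of 26 interferon-stimulated genes 17 (65.4%) were lower and 4 higher, with a median of -0.85 (-0.54 in batch 1 and -1.04 in batch 2). In both batches 10 were 2-fold lower, against 3.08% of all genes. OASL, an antiviral gene of the oligoadenylate synthetase family, lay from 36.7 to 70.8 CPM (median 48.6) in untreated and from 7.87 to 11.4 CPM (median 9.66) in CKI libraries. IFIT3, of the family that binds foreign RNA, lay from 189.9 to 270.5 CPM (median 217) and from 50.9 to 65.8 CPM (median 57.0), a log2 fold change of -1.93 ± 0.10 (SE), and IFIT1 of the same family changed by -1.71. All 6 CKI libraries were below all 6 untreated ones for these genes. Of the regulators, IRF9, a subunit of the interferon-activated factor, fell by 0.72 and its partner STAT2 had -0.04 (adjusted p = 0.591, quasi-likelihood test of edgeR, Benjamini-Hochberg adjusted).

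Of 15 genes of MHC class I presentation 9 were lower and 1 higher (median -0.20), led by the immunoproteasome genes PSMB10 (-1.44) and PSMB8 (-0.99), with HLA-F (-0.85), the peptidase gene ERAP2 (-0.41) and the regulator NLRC5 (-0.24). Reads of HLA genes can be shared within the family. Among 22 cytokine and NF-κB genes tested of 25, 12 were higher and 6 lower. The batches parted, with medians of 0.58 and -0.02 and 15 genes that differed between them, against 14.3% of all genes. IL1B, an inflammatory cytokine gene, lay from 2.66 to 4.72 CPM (median 3.32) in untreated and from 10.4 to 21.2 CPM (median 15.7) in CKI libraries, and its log2 fold changes were 2.36 in batch 1 and 1.89 in batch 2. IL1A had 4.07 in batch 1 and 1.69 in batch 2, the inhibitor of apoptosis gene BIRC3 had 1.46 in batch 1 and 0.80 in batch 2, and IL11 had 1.08 in batch 1 and 0.73 in batch 2. The chemokine gene CXCL8, named after its values were seen, changed by -1.18 over both batches. Of the NF-κB subunit genes RELA (0.20), NFKB2 (0.65) and RELB (0.52) rose and NFKB1 (-0.64) fell.

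Genes downstream of ERK were mostly higher at 48 h. Of 18 genes of ERK output and feedback 12 were higher and 4 lower, with a median of 0.52. EGR1, an immediate early transcription factor gene, lay from 26.9 to 60.8 CPM (median 42.9) in untreated and from 159 to 243 CPM (median 178) in CKI libraries (log2 fold change 2.22) and FOS, another, lay from 21.3 to 30.6 CPM (median 23.5) and from 76.6 to 113 CPM (median 105) (2.03), with no overlap in either. The phosphatase gene DUSP5 (1.29) and JUNB (0.98) rose as well. Of 22 genes of the BCL2 family, inhibitors of apoptosis and death receptors 9 were higher and 8 lower (median -0.02), with the survival gene BCL2 at -0.89, the death receptor gene TNFRSF10B at 0.58 and the initiator caspase gene CASP9 at 0.51. Of 15 circadian clock genes 9 were higher and 4 lower (median 0.23). The clock activator gene ARNTL rose by 1.10 and the clock repressor genes NR1D1 by 0.73 and NFIL3 by 0.59, the period gene PER3 fell by 0.62, and CLOCK had -0.05 (adjusted p = 0.471, quasi-likelihood test of edgeR, Benjamini-Hochberg adjusted).

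**Figure D4:**
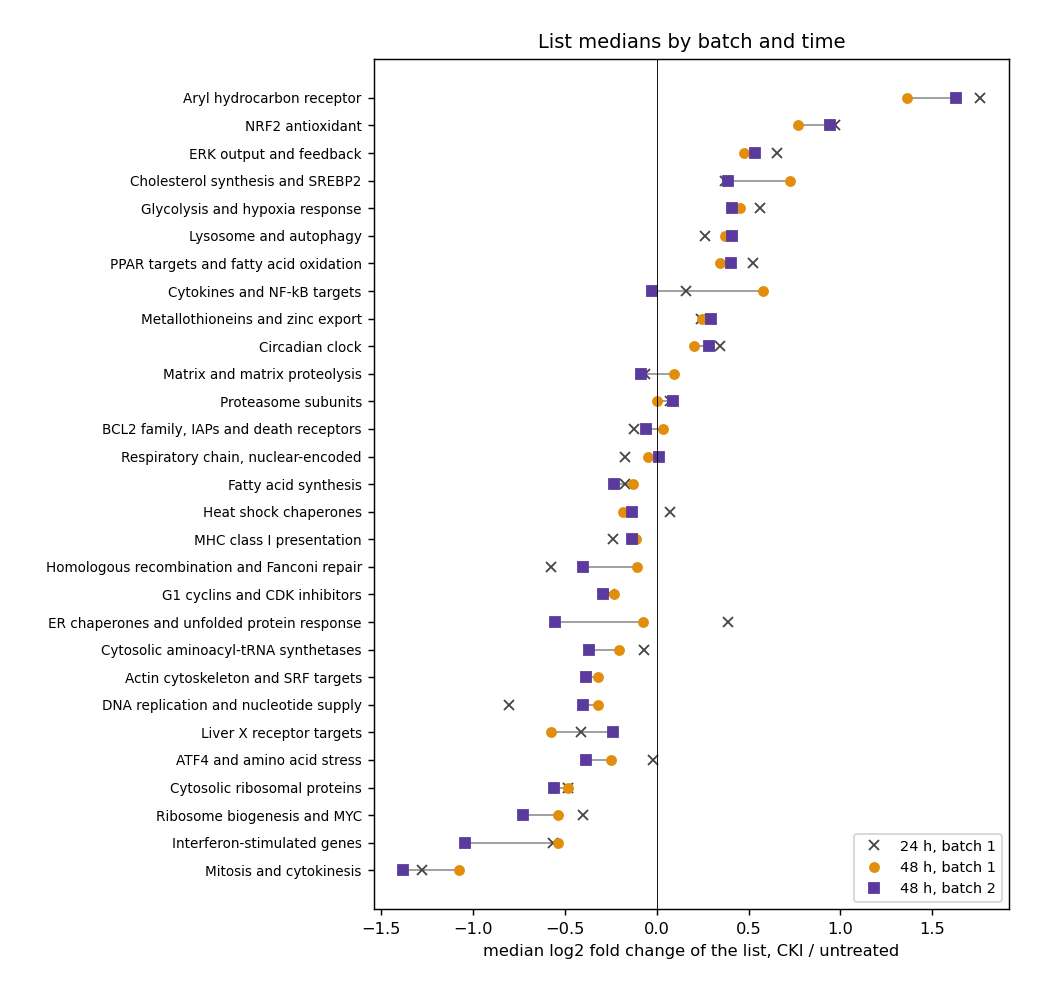
Median log2 fold change of CKI over untreated cells (x axis) for each of the 29 gene lists (y axis) at 48 h in batch 1 (circles) and batch 2 (squares), joined by a line, and at 24 h in batch 1 (crosses), from 3 CKI and 3 untreated libraries each. The medians carry no test, and the ER chaperone list lies at 0.39 at 24 h, -0.08 at 48 h in batch 1 and -0.56 at 48 h in batch 2.

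The size of the response differed between the batches in 2058 genes (14.3%), 1087 with a higher and 971 with a lower log2 fold change in batch 2, by a batch-by-treatment interaction in the quasi-likelihood test of edgeR, Benjamini-Hochberg adjusted. Of the 1042 genes 2-fold changed in both batches 147 were among them. So were 18 of 22 ER chaperone, 15 of 22 cytokine, 4 of 7 metallothionein and 13 of 28 matrix genes. The same held for 12 of 26 NRF2, 12 of 33 mitosis, 10 of 22 actin and 9 of 25 cholesterol genes. In some lists such genes were rarer, with 5 of 75 ribosomal protein and 2 of 35 DNA replication genes. Of the 2058 genes 1434 had log2 fold changes of the same sign in both batches and 624 of opposite signs, and 147 genes (1.02%) were DE in opposite directions in the batches. Of the genes with the largest interaction among those at 10 CPM or more, PTX3, a pentraxin gene, had 68.3, 70.0 and 70.5 CPM in untreated and 88.0, 83.7 and 83.2 CPM in CKI libraries of batch 1. In batch 2 it had 81.0, 84.4 and 71.3 CPM in untreated and 38.9, 39.7 and 41.9 CPM in CKI libraries. Its log2 fold changes were 0.30 in batch 1 and -0.98 in batch 2. The noncoding RNA SFTA1P had log2 fold changes of 0.91 in batch 1 and -0.36 in batch 2, and the forkhead gene FOXO6 of -0.63 in batch 1 and 0.72 in batch 2. What distinguishes the batches is not given in the sources used here, so its part in these differences was not tested.

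The change between 24 and 48 h could be followed in batch 1 alone, where 232 of 14834 genes (1.56%) had a CKI response that differed between the times, 124 (0.836%) higher and 108 (0.728%) lower at 48 h. This number hung on single libraries. It was 1418 without CKI replicate 1 and 385 without CKI replicate 3 of 24 h, 37, 54 and 117 without untreated replicates 1, 2 and 3 of 24 h, 112, 19 and 23 without CKI replicates 1, 2 and 3 of 48 h, and 65, 20 and 36 without untreated replicates 1, 2 and 3 of 48 h. HSPA5 had the smallest adjusted p-value of the 10 genes read here, changing by 0.46 at 24 h and by -0.75 at 48 h on the log2 scale, a difference of -1.21 (adjusted p = 6.49e-05 by the quasi-likelihood test of edgeR, Benjamini-Hochberg adjusted). The sign of its change differed between the times. Other differences toward lower values at 48 h were those of MIR6087 (-1.64), the cystine transporter gene SLC7A11 (-1.31), the phospholipid-remodelling gene LPCAT1 (-0.99) and TCAF2 (-0.90). Differences toward higher values were those of the integrin gene ITGA10 (1.91), the noncoding RNA NEAT1 (1.38), MMP1 (1.31), the arylsulfatase gene ARSA (1.21) and the protease inhibitor gene SERPINA1 (1.17). Of these 10 genes 9 lost their call under at least 1 of the alternatives, HSPA5 being the exception.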

How the data were processed

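RNA from MDA-MB-231 cells was selected for poly(A), made into strand-specific libraries and sequenced as paired-end 150 base reads. The authors deposited raw counts of reads per RefSeq gene symbol, with no normalisation. The submitters' processing notes name FastQC 0.11.4, Trim Galore 0.3.7, STAR 2.5.3a, Subread 1.5.2, featureCounts, edgeR 3.22.3 and build hg19. The annotation version and the strand setting of the counting are not given in the sources used here.

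The 12 libraries of CKI and untreated cells at 48 h were grouped by their labels. Genes were filtered with edgeR's filterByExpr, scaled by TMM and tested with edgeR's quasi-likelihood test (glmQLFit and glmQLFTest, edgeR 4.0.16, limma 3.58.1, R 4.3.3) with batch and treatment as terms, and p-values were adjusted by the Benjamini-Hochberg method over all genes tested. Each batch was also fitted alone, and differences between batches and, in batch 1, between 24 and 48 h were tested as interactions. The script was tested on simulated counts in which treatment changed 200 genes. That is far fewer than were DE here, so how the scaling behaves under such wide changes was not tested.

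The named genes were the 15 of at least 10 CPM with the largest smaller change of the batches in each direction, the 6 with the largest gain and the 6 with the largest loss of reads, up to 4 targets per list of at least 5 CPM with the largest change in both batches, each list's regulators, and the 5 with the largest interaction in opposite directions between batches and, among genes also changed at 48 h, in each direction between times. Members and lists were chosen with earlier results of these data known. Gene symbols and counts are those of hg19, and promoter sequences were taken from RefSeq (GRCh38.p14) by symbol alone. Replicate numbers are not stated to pair the samples, so the main fits held no replicate block. Deviations of same-numbered CKI and untreated libraries correlated between -0.131 and 0.0128 at 48 h and between -0.285 and 0.028 at 24 h. With 3 libraries per group such values cannot exclude pairing. Alternatives tried were other scalings, filters, thresholds and tools (DESeq2 1.42.0), a replicate block, no batch term, a fit of all 54 libraries and leaving out each library. The other 42 libraries were not used for the comparison of CKI with untreated cells, except in that fit and at 24 h. Some genes and 1 gene list met by these rules are not reported here.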

Additional observations from a re-analysis of the deposited data

Results flagged for a closer look

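The genes below were set apart because their response to CKI differed between batches or times by a test of the difference itself (an interaction term in edgeR's quasi-likelihood test, Benjamini-Hochberg adjusted p under 0.05). Of the named genes reported here, 62 differed between the batches, and each value is the log2 fold change in batch 2 minus that in batch 1. The 62 include FOXO6, PTX3 and SFTA1P, which were named for such a difference. Of all genes tested 14.3% differed between the batches. In 5 genes the changes of the batches had opposite signs. These were FOXO6 (1.37), PTX3 (-1.26), SFTA1P (-1.25), CLOCK (0.33) and NFE2L1 (-0.21).

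In 39 genes the change was larger in batch 2. Rising genes of xenobiotic and antioxidant metabolism were prominent among them, with AKR1C2 (2.17), AKR1B10 (1.69), CYP1A1 (1.23), AKR1C1 (1.00), NQO1 (0.77), CYP1B1 (0.57) and SRXN1 (0.47). Genes of the ER, amino acids and translation that fell more in batch 2 were HSPA5 (-0.89), HSP90B1 (-0.69), CRELD2 (-0.53), XBP1 (-0.34), WARS (-0.54), FARSB (-0.29), EEF1A1 (-0.31), UTP20 (-0.43), NOP16 (-0.39) and MYC (-0.68). Among cell cycle, interferon, matrix and actin genes they were CDC20 (-0.35), PLK1 (-0.34), IFIT3 (-0.72), IFIT2 (-0.65), CEMIP (-1.04), TNC (-0.30), ACTG1 (-0.26) and CNN3 (-0.26). Metabolic and transport genes that rose more in batch 2 were LPCAT1 (0.76), NR1H3 (0.63), ALDOC (0.44), SLC30A1 (0.43), TM7SF2 (0.38), PPARA (0.37), ETFDH (0.35) and GLA (0.25), together with the regulator genes TFEB (0.43) and MKL1 (0.31). The remaining genes that fell more in batch 2 were IGFBP1 (-0.99), MT1E (-0.69), C6orf132 (-0.54) and NFKB1 (-0.41).

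In 18 genes the change was larger in batch 1. Cytokine, protease and signalling genes were IL1A (-2.37), MMP1 (-2.02), BIRC3 (-0.64), IL11 (-0.33), SERPINA1 (-0.65), ITGA10 (-1.11) and DUSP5 (-0.67), followed by LUCAT1 (-0.94), MT1X (-1.01), ERN1 (-0.72), ARSA (-0.37), MSMO1 (-0.37), ACSS2 (-0.34) and ME1 (-0.33). Genes that fell more in batch 1 were MYLIP (0.63), CDKN2C (0.45), NLRC5 (0.39) and KEAP1 (0.36).

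Between 24 and 48 h in batch 1, 25 of the named genes had a response that differed, and each value is the log2 fold change at 48 h minus that at 24 h. The 25 include 10 genes named for this difference, which 1.56% of all genes tested had. With a replicate block 24 of the 25 were not called, HSPA5 being the exception (adjusted p = 0.0367 by the quasi-likelihood test of edgeR). Higher at 48 h were ITGA10 (1.91), NEAT1 (1.38), MMP1 (1.31), ARSA (1.21), SERPINA1 (1.17), TM7SF2 (0.77), MT1X (0.73), RELB (0.72), LIG1 (0.68), RAD51AP1 (0.58), MSMO1 (0.51) and ACSS2 (0.51). Lower at 48 h were MIR6087 (-1.64), SLC7A11 (-1.31), HSPA5 (-1.21), LPCAT1 (-0.99), TCAF2 (-0.90), OASL (-0.81), C6orf132 (-0.79), MANF (-0.76), PHGDH (-0.73), SRXN1 (-0.69), MT1E (-0.61), HSP90B1 (-0.53) and NQO1 (-0.46).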

How the results depend on the processing

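The count of 10264 genes called at 48 h stayed between 7211 (no batch term) and 10904 (no filter beyond 1 count) over the other settings, with 10260 under RLE size factors, 10314 with library sizes alone (6016 higher and 4298 lower, with 721 and 370 genes 2-fold higher and lower in both batches), 9661 at a mean of at least 1 CPM, 10151 by DESeq2 and 9524 with all 54 libraries in 1 fit. Asking for a change of 1 or more on the log2 scale gave 1518 genes, 853 higher and 665 lower, and asking for 1.5-fold in each batch gave 1380 higher and 1247 lower genes. Leaving out 1 library at a time gave 9996 to 10266 genes called, 590 to 639 and 430 to 474 genes 2-fold higher and lower, and 1411 to 2392 that differed between batches. Whether replicate numbers pair the samples at 24 or 48 h is not stated. With a replicate block 9729 genes were called, 608 and 441 were 2-fold higher and lower, 1443 differed between batches, and none of the named genes lost its call in the comparison at 48 h. The count that differed between 24 and 48 h was 1 with the block, 847 by DESeq2 and 19 to 1418 without 1 library, so it is the least settled result here, and the cause was not tested.

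Library sizes alone moved log2 fold changes upward by about 0.0766, since TMM scaling was dropped, and with them the medians of 16 lists. They became -0.27 for actin, -0.38 for ATF4, 0.057 for BCL2, 0.30 for circadian, -0.44 for ribosomal protein, -0.31 for DNA replication, 0.60 for ERK, -0.10 for fatty acid synthesis, -0.20 for G1, 0.52 for glycolysis, -0.11 for heat shock, 0.46 for lysosome, -0.13 for MHC class I, 0.39 for PPAR, 0.10 for proteasome and 0.047 for respiratory chain genes, so that BCL2 and respiratory chain changed sign. No filter beyond 1 count, which adds low genes, gave -0.37 for actin, -0.42 for G1 and -0.26 for metallothionein genes, which had 0.27, and the fit of all 54 libraries gave 0.069 for the last. Leaving out 1 library gave ranges of -0.36 to -0.32 for actin, -0.50 to -0.38 for ATF4, 0.41 to 0.47 for glycolysis, 0.35 to 0.44 for lysosome and -0.22 to -0.18 for MHC class I genes.

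Of 175 named genes called at 48 h, none changed sign and 19 lost the call under at least 1 alternative, 12 of them only without the batch term (AHR, ARNT, DDIT3, E2F1, ERN1, MKL1, MTF1, MYC, NFE2L2, SCAP, TFE3 and TFEB). The call was lost with library sizes alone by EPAS1 (-0.097), NLRC5 (-0.16), KEAP1 (-0.12), PPARG (-0.067) and RB1 (-0.072), which also lost it without the batch term, and with all 54 libraries by SREBF2 (0.14), RNR2 (0.46), PPARG and RB1. PPARG also lost it without CKI replicate 2 or 3 of batch 2, and RB1 without untreated replicate 1 of batch 1. NFE2L1, not called, passed the test with library sizes alone (0.16), at a mean of at least 1 CPM (0.11) and without untreated replicate 3 or CKI replicate 2 or 3 of batch 2 (0.11 to 0.12). Sign changes were found in 5 uncalled genes, all near 0. ATF6 had -0.0099 with no filter beyond 1 count, -0.0078 with all 54 libraries, and -0.0035, -0.0076 and -0.0080 without untreated replicate 2 or 3 of batch 1 or 2 of batch 2, and at most 0.030 without any 1 library. With library sizes alone CLOCK had 0.026, SRF 0.047 and STAT2 0.040. CLOCK had 0.016 and HSF1 -0.0018 without untreated replicate 1 of batch 1, and HSF1 -0.0072 without untreated replicate 2 of batch 2. Over all libraries left out in turn CLOCK lay between -0.083 and 0.016 and HSF1 between -0.0072 and 0.065. The smallest library had 19160502 counts, and what depth limits was not compared with the spread of replicates.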
